A study of Homo sapiens with 2 samples.

Results

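Suffix models that dominate their gene were examined in native RNA reads of GM12878, an established human line of B cells immortalised by Epstein-Barr virus. A suffix model is an incomplete splice match: it has only the junctions at the 3′ end of an annotated transcript, so 1 or more exons at the 5′ end are absent. A model was chosen when it had at least 10 reads and at least 50% of the reads of its gene in each of the 2 libraries, with Genomic models (reads within a gene that fit none of its splicing) left out of the total. This rule chose 38 models in 38 genes, of 2475 suffix models with at least 10 reads in each library, 70305 suffix models and 237608 transcript models in all. The members were chosen by their read counts and shares, so the levels of both are given below as a description with no test; only the difference between the libraries was tested, as set out with that result.

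The 2 libraries are replicates of 1 group, with no treatment, second cell line or batch in the labels. Total RNA was extracted on columns, depleted (of what is not stated) and read as native strands without PCR, after a reverse transcription step. The labels do not say that the libraries came from separate cultures, so every p-value measures only the difference between these libraries. Replicate 1 held 1360368 reads and replicate 2 held 1510998. Of the markers of B cells, CD79A had 936 and 1026 reads and MS4A1 360 and 416. Of the markers of other lineages, ALB, HBG1, GATA1, LYZ and CD3D had 0 reads in both libraries, CD14 had 2 in each, and CD3E, a T cell gene, had 5 and 16.

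A pore reads a native RNA strand from its 3′ end, so a strand that is broken, or left before its 5′ end, yields a read that stops inside the transcript. Assigned to an annotation, such a read becomes a suffix model. A complete strand is also a suffix model when it starts at a site inside a longer annotated transcript, or when a short 5′ exon is not placed by the aligner. The table holds the length and the exon number of a model but not the positions of its ends, and these cases cannot be told apart for any model here.

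The description that follows rests on the boundary between the last absent exon and the first retained exon of each model. This boundary could be fixed for 25 of the 38 models, because only 1 run of annotated junctions fitted the exon number and the length. A model need not begin at its boundary, as the positions of its ends are not given. The RPL7A model, of 1528 bases, is longer than all of RPL7A-202, of 891, and the HLA-DPA1 model, of 2133, exceeds HLA-DPA1-242, of 1704. The boundaries of 4 abundant genes come first. Bases of the exon that is absent are in lower case and bases of the first retained exon in capitals, 5′ to 3′, from GENCODE release 29 on GRCh38.
RPS2: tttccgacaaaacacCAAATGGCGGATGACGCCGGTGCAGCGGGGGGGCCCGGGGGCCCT
RPL26: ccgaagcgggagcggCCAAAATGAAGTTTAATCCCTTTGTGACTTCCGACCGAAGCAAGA
RPL7A: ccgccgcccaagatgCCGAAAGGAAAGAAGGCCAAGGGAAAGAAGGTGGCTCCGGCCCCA
HLA-DPA1: ccgtccctggaaaagTGCTAGAGGCCCACA
In the RPS2 transcript with this boundary the first retained exon is chr16:1964449-1964628 on the minus strand, and the start codon ATG begins at its base 4. In RPL26-214 it is chr17:8382143-8382315 on the minus strand, with the start codon from base 6. In RPL7A-202 (chr9:133348922-133349042, plus strand) the start codon is the last 3 bases of the absent exon. In HLA-DPA1-242 (chr6:33073471-33073669, minus strand) the start codon begins at base 100 of the first retained exon, beyond the stretch shown.

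Further boundaries show the other arrangements among the members. The annotated start codon lies in the absent exon in CETN2 and near the start of the first retained exon in PPP1R15A and KNOP1, and in the remaining 4 the boundary lies inside the coding sequence.
CETN2: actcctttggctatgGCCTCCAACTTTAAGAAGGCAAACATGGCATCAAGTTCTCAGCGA
PPP1R15A: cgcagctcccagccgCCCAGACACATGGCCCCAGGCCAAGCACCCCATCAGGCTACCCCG
KNOP1: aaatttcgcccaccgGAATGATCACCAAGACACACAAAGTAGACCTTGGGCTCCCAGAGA
LYAR: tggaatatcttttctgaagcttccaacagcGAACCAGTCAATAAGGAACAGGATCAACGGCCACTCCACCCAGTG
SCAF1: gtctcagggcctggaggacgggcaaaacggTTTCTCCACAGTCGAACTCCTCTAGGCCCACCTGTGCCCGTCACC
KRT10: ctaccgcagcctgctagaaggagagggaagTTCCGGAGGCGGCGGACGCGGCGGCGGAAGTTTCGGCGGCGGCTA
LILRA4: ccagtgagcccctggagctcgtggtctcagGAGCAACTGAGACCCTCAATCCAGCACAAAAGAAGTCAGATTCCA
In the annotated transcripts that could give these models, the first retained exon is exon 2 of 5 in CETN2 (chrX:152829602-152829760, minus strand) and KNOP1 (chr16:19714118-19715037, minus strand) and exon 2 of 3 in PPP1R15A (chr19:48873225-48874898, plus strand). It is exon 7 of 10 in LYAR (chr4:4274367-4274769, minus strand), exon 7 of 11 in SCAF1 (chr19:49650868-49653705, plus strand), and exon 7 of 8 in both KRT10 (chr17:40818787-40819161, minus strand) and LILRA4 (chr19:54333915-54333965, minus strand).

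Together the 38 models took 24394 reads, 1.79% of replicate 1, and 26179 reads, 1.73% of replicate 2. Of these reads, 94.5% in each library belonged to 6 genes: RPS2, RPL7A, RPS27A, RPL34, RPL26 and HLA-DPA1. A further 3 models had 100 or more reads in each library, and the other 29 had fewer than 100 in at least 1. The median count was 38.5 reads in replicate 1 and 36 in replicate 2. The median share of the gene was 68.2% and 64.9%, and the lower bound of the Wilson 95% interval reached 50% in both libraries for 18 models. These intervals cover counting error only.

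**Figure D1:**
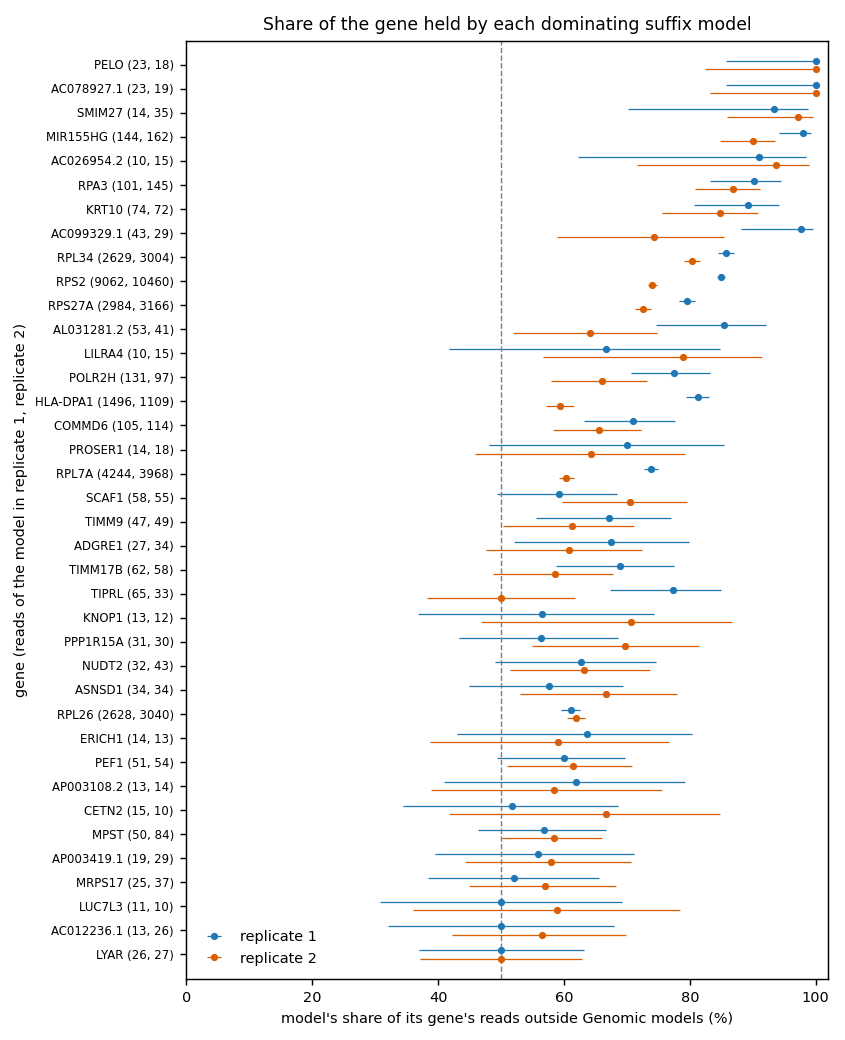
Share of each gene's reads outside Genomic models (x axis, %) held by its dominating suffix model, with Wilson 95% intervals, in replicate 1 (blue) and replicate 2 (orange); the y axis lists the 38 genes with the reads of the model, and the dashed line is the 50% used to choose them. The intervals of RPS2, RPL7A, RPS27A, RPL34 and RPL26 are the narrowest, and both intervals stay at or above the dashed line in 18 of the 38 genes.

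The share threshold was met exactly by LYAR, with 26 of 52 reads in replicate 1 and 27 of 54 in replicate 2, and in replicate 1 by LUC7L3 and AC012236.1. The closest models below it were in TAF15 (49.2% and 66.7%), HIRIP3 (48.5% and 46.7%) and RBM14 (46.0% and 62.7%). At the read threshold, AC026954.2 (10 and 15 reads), LUC7L3 (11 and 10) and CETN2 (15 and 10) lay just inside, and the models of PILRA (9 and 14 reads), AC253536.7 (8 and 11) and SGO2 (14 and 8) lay just outside.

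Where the boundary was fixed, the median number of absent exons was lower in the members than in other suffix models. Of the 25 models with a fixed boundary, 17 (68%) lacked 1 exon, 2 lacked 2 to 4 and 6 lacked 5 or more, with a median of 1 absent exon and 129 absent bases. Of the other 2437 suffix models with at least 10 reads in each library, 1261 had a fixed boundary; 27.0% of these lacked 1 exon and 36.7% lacked 5 or more, with medians of 3 exons and 496 bases. Where a single exon was absent it had a median of 77 bases in the members (31 to 475) and 139.5 bases in the other models. Where several annotated transcripts shared a boundary, 1 was used for each model, and the medians depend on this choice. In RPL26, RPL7A, POLR2H, RPA3, PEF1, MRPS17 and AC026954.2 it had the fewest absent bases. These were 37 of a possible 37 to 384 in RPL26 and 110 of 110 to 429 in POLR2H. RPA3 was counted as lacking 1 exon from a transcript of 5 exons, though one of 8 shares its boundary. In ASNSD1, NUDT2 and LYAR it had the most absent bases. Exon number and length played no part in the rule. The 38 members came from 38 genes and the other 2437 models from 1024, so the others included several models of some genes. How far this shapes the contrast was not tested. Models of 1 gene are not independent, so these values are given without a test.

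The place of the annotated start of translation was also compared, with the same limits and again without a test. Of the 22 members with a fixed boundary and an annotated start codon, 13 (59.1%) had it in a retained exon: in the first retained exon in 11 and in a later one in 2. Among the other suffix models this held for 157 of 1179 (13.3%). The remaining members have no such value, and whether a model reaches the start codon within its first exon is not given by the table. The median share of coding bases in retained exons was 100% in the members and 66.3% in the others. Within models that lacked exactly 1 exon, the start codon lay in a retained exon in 11 of 15 members and in 133 of 324 (41.0%) other models.

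**Figure D2:**
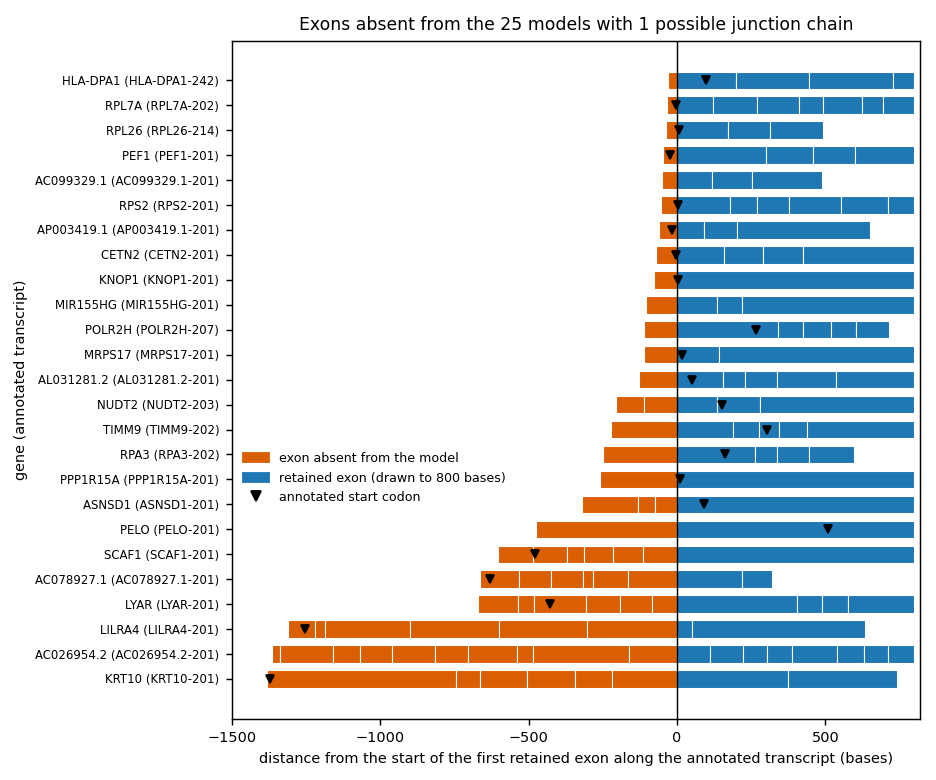
Annotated transcripts of the 25 models with 1 possible run of junctions, aligned at the start of the first retained exon (x axis, bases along the transcript): absent exons in orange, retained exons in blue and cut at the right edge, the annotated start codon as a triangle. Each model is drawn on 1 annotated transcript. From HLA-DPA1 down to PELO the absent part is 31 to 475 bases, and from SCAF1 down to KRT10 it is 602 bases or more.

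The remaining 13 models could not be fixed to 1 boundary. In RPL34, COMMD6, TIMM17B, MPST and others, several runs of annotated junctions fitted. For RPS27A and TIPRL every run that fitted was itself an annotated transcript in full, as for 54 (2.22%) of the other suffix models. TIPRL-202, the only annotated TIPRL transcript with 7 exons or more, has 7 exons and 3032 bases, and the model also has 7 exons but 1120 bases, so its exon number leaves no junction absent. For 8 of the 38 models the length equalled the sum of the last exons of an annotated transcript to the base (RPS2, RPL26, SCAF1, ASNSD1, NUDT2, PPP1R15A, LYAR and LILRA4), against 33.1% of the other suffix models. Over all 38, the model had a median of 75.2% of the length of the longest annotated transcript that could give it, and 8 models were longer than that transcript. The length is that of the model in the table and not of each read.

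Ribosomal protein genes supplied the most abundant members. Ribosomal proteins are made in every growing cell, from short, highly expressed mRNAs whose first exon is often a short untranslated leader. RPS2 (chromosome 16, 1962052 to 1964860, minus strand), a protein of the small subunit, had 9062 and 10460 reads in its 6-exon model, with a Wilson interval of 84.3 to 85.6% of the gene in replicate 1 and 73.3 to 74.7% in replicate 2. Known models of RPS2 held 0.197% and 0.340% of the reads, and the annotated transcript that has the absent exon, of 54 bases, had 2 and 7 reads. Almost all RPS2 reads therefore lacked a fully matching annotated transcript in both libraries.

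RPL7A (chromosome 9, 133348214 to 133351426, plus strand), of the large subunit, had 4244 and 3968 reads in its 7-exon model, 73.8% and 60.4% of the gene. The absent exon has 33 bases in RPL7A-202 and 137 in RPL7A-205, and these 2 transcripts had 139 and 144 reads as known models. RPL26 (chromosome 17, 8377516 to 8383250, minus strand) had 2628 and 3040 reads, 61.1% and 61.9% of the gene. It differed from RPS2 in that known models held a larger part of the gene, 30.6% and 30.1%. The transcripts with the boundary shown, whose absent exon has 37 to 384 bases, were read 1248 and 1284 times as known models. Known models and the suffix model of RPL26 therefore both had reads in both libraries.

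RPL34 (chromosome 4, 108620566 to 108630412, plus strand) had 2629 and 3004 reads in its 4-exon model, 85.7% and 80.3% of the gene. Another 6 suffix models with 4 exons together had 53 and 83 reads, which shows that the table separates models by more than their exon number. RPS27A (chromosome 2, 55231903 to 55235853, plus strand), which encodes ubiquitin fused to a small-subunit protein, had 2984 and 3166 reads in its 5-exon model, 79.6% and 72.5% of the gene. Its 13 other 5-exon suffix models held 202 and 172 reads. Many ribosomal protein genes have processed pseudogenes, so the assignment of their reads is less certain than for single-copy genes.

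The members were 5 of 84 protein-coding ribosomal protein genes with at least 10 reads in each library, against 38 of 8261 (0.460%) of all annotated genes with that many reads; the family was picked once its values were known. In these 84 genes, the most read model outside Genomic models was a known one in 70, a suffix model in 8 and another incomplete match in 6. RPL19 (46.3% and 45.5%), RPL35A (46.8% and 40.5%) and RPL22L1 (41.8% and 38.5%) were led by a suffix model below the share threshold. In the 70 genes led by a known model, the first exon of that model had 21 to 1912 bases with a median of 172.

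HLA-DPA1 (chromosome 6, 33064569 to 33080775, minus strand) encodes the alpha chain of the class II molecule HLA-DP, which presents peptides to T cells. Its 5-exon model had 1496 reads (81.3%) in replicate 1 and 1109 reads (59.4%) in replicate 2. The only annotated transcript that can give it, HLA-DPA1-242, has an absent exon of 31 bases and had 1 read and 0 reads, and all known models together held 0.163% and 0.696%. The gene is polymorphic, and the effect of this on alignment was not tested.

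MIR155HG (chromosome 21, 25561909 to 25575168, plus strand) is a long noncoding RNA that carries the precursor of miR-155, a microRNA known for its role in activated and transformed B cells. The mature strands, from RefSeq on GRCh38.p14, have their seed (bases 2 to 8) in capitals.
hsa-miR-155-5p: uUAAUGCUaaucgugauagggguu
hsa-miR-155-3p: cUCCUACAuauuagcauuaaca
The 5p strand lies at chr21:25573983-25574006, in exon 4 of the 4 exons of the annotated MIR155HG transcript and from base 91 of it. The junctions of the dominating model lack exon 1, of 106 bases, and reach into exon 4. Exon 4 has 1276 bases and the model only 586, so it can hold no more than a part of that exon, and the table does not say whether this part includes the microRNA. This 3-exon model had 144 and 162 reads, 98.0% (94.2 to 99.3%) of the gene's reads outside Genomic models in replicate 1 and 90.0% (84.7 to 93.6%) in replicate 2. The complete annotated transcript had 0 and 2 reads. Genomic models took a further 65 reads in replicate 1 (30.7% of the gene's total) and 38 in replicate 2 (17.4%), so over all reads the dominating model held 67.9% and 74.3%.

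Besides MIR155HG, the members with the next most reads were in RPA3, POLR2H and COMMD6. RPA3, the smallest subunit of the single-strand DNA binding protein RPA, had 101 and 145 reads, 90.2% and 86.8% of the gene. POLR2H, a subunit shared by the nuclear RNA polymerases, had 131 and 97 reads, 77.5% and 66.0%. COMMD6 had 105 and 114 reads, 70.9% and 65.5%. The start codon lay in the first retained exon in RPA3 and POLR2H, so the absent exons there are untranslated in the annotation, while the boundary in COMMD6 was not fixed.

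**Figure D3:**
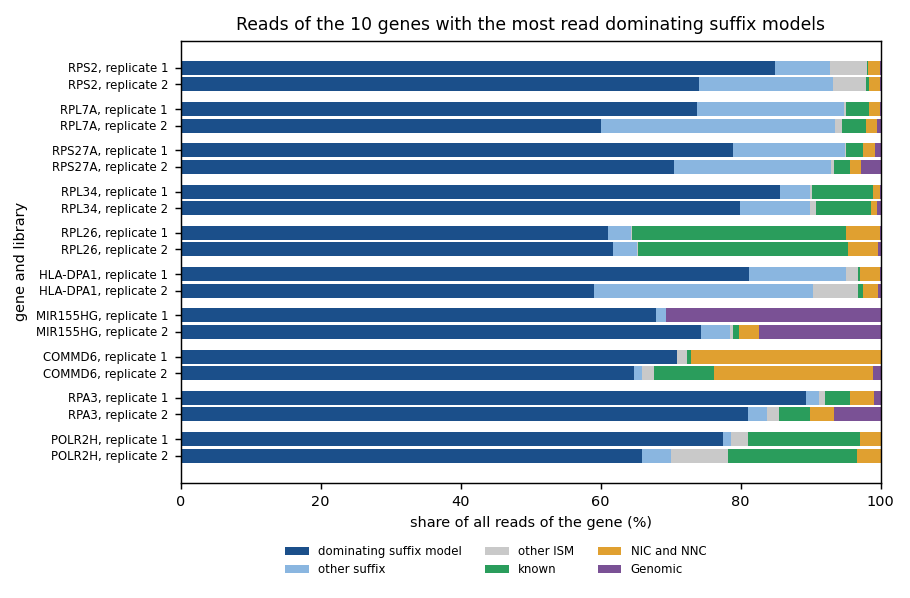
Reads of the 10 genes whose dominating suffix model had the most reads, by category and library (x axis, % of all reads of the gene, Genomic models included). Known models (green) are a thin band in RPS2 and HLA-DPA1 and about 30% in RPL26, and Genomic models (purple) stand out in MIR155HG.

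Genes of mitochondrial proteins gave 4 smaller members. TIMM17B and TIMM9, which act in protein import, had 62 and 58 reads (68.9% and 58.6%) and 47 and 49 reads (67.1% and 61.3%). MPST, a sulfurtransferase, had 50 and 84 reads (56.8% and 58.3%), and MRPS17, of the mitochondrial ribosome, 25 and 37 reads (52.1% and 56.9%). Known models held 43.8% and 41.5% of MRPS17 but 1.11% and 2.02% of TIMM17B.

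In another set of members the boundary lay well inside the annotated transcript. LILRA4, a receptor known from plasmacytoid dendritic cells, had 10 and 15 reads in a model whose retained exons hold 16.2% of the coding bases, and KRT10, an epidermal keratin, had 74 and 72 reads in one whose retained exons hold 21.6%. The value was 62.3% for the nucleolar protein gene LYAR and 87.9% for SCAF1, whose product binds the tail of RNA polymerase II and whose model had 58 and 55 reads. ADGRE1, an adhesion receptor of myeloid cells, had 27 and 34 reads in a 6-exon model and no read in a known model. Its boundary was not fixed: the annotated transcripts that could give it run from one with 8 exons to one with 21. LILRA4 had 0 reads in known models in replicate 1 and 1 read, in a 2-exon known model, in replicate 2.

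Members whose start codon lies in the first retained exon included PPP1R15A, a regulator of eIF2 dephosphorylation, with 31 and 30 reads (56.4% and 69.8%). KNOP1 had 13 and 12 reads (56.5% and 70.6%) in the longest model of all, of 5001 bases. PELO, a ribosome rescue factor, had 23 and 18 reads, which were all reads of the gene outside Genomic models, and its start codon lay 510 bases into the retained exon. SMIM27, a small membrane protein gene whose boundary was not fixed, came next in share, with 14 reads (93.3%) and 35 reads (97.2%). CETN2, a centrin, has its start codon in the absent exon of 70 bases, as RPL7A does, and had 15 and 10 reads. NUDT2 (32 and 43 reads), ASNSD1 (34 and 34) and PEF1 (51 and 54) had shares between 57.6% and 66.7% in both libraries, and ERICH1 had 14 and 13 reads (63.6% and 59.1%). Against the longest annotated transcript that could give the model, AL031281.2 lacked 9084 bases, LUC7L3 6015, MPST 5205, PROSER1 3307 and PELO 2687, the 5 widest gaps. These gaps are in total length and not only at the 5′ end: the absent exon has 129 bases in AL031281.2 and 475 in PELO, and the boundaries of the other 3 were not fixed.

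Some members carried junctions of another annotated gene. This held for 8 of the 38 (21.1%) and for 7.06% of the other suffix models. In 6 of the 8 the other gene had reads of its own in both libraries and the member lay in a gene with a clone-based name that overlaps it. AL031281.2 had 53 and 41 reads in its model while CDC42, a small GTPase gene that shares its junctions, had 301 and 332 reads. AP003419.1 had 19 and 29 against 160 and 205 in POLD4, AC078927.1 had 23 and 19 against 64 and 55 in LLPH, and AC026954.2 had 10 and 15 against 89 and 69 in GPS2. AP003108.2 had 13 and 14 against 65 and 61 in SDHAF2, and AC099329.1 had 43 and 29 against 42 and 24 in HIGD1A and 42 and 67 in AC006059.2. The boundary of AP003108.2 was not fixed, so its model may or may not have a shared junction. For reads that cover only the shared exons, these genes cannot be told apart. Set against the model and the other gene together, the AC078927.1 model had 26.4% and 25.7% of the reads and the AP003419.1 model 10.6% and 12.4%. None of these 6 genes had a read in a known model, and 9 of the 38 genes had none; the other 3 were TIPRL, ADGRE1 and PELO. On the opposite strand, 20 of the 38 genes overlap another annotated gene, and the labels do not say whether strand was used in counting.

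Beside MIR155HG, the genes that are not protein coding were AC012236.1, a lincRNA gene with 13 and 26 reads (50% and 56.5%), and AC099329.1, annotated as antisense. Genomic models, which the rule left out, had no read in 9 of the 38 genes. Their share of all reads of the gene was higher in replicate 2 in 25 genes and lower in 4, with medians of 0.119% and 2.75%. The same difference was not computed over all annotated genes, so it is not read as particular to the genes of the members. The Genomic share differed among these genes. It was highest over both libraries in LUC7L3 (9 and 18 reads), PROSER1 (11 and 22 reads) and KNOP1 (8 and 15 reads). In LUC7L3 the suffix model held 35.5% and 28.6% of all reads once Genomic reads were counted.

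The 2 libraries can also be compared with each other. The rule used the share in each library and not the difference between them, though both come from the same reads, and a member cannot have fallen below 50%. The calls among the members are therefore read only beside those of all models. Each model's use within its gene was tested with a two-sided Fisher's exact test over 19091 models, with Benjamini-Hochberg adjustment. In this test 9.72% of all models were higher and 8.13% lower in replicate 2 at an adjusted p under 0.05. Of the 36 members that could be tested, 9 fell and 0 rose at this threshold (10 and 0 at an unadjusted p under 0.05). Whether or not it was called, the share was higher in replicate 2 in 16 of the 36 and lower in 19. Over all models tested, 54.3% were higher and 45.5% lower. PELO and AC078927.1 have no other reads and were not tested. Of all 7661 suffix models tested, 13.7% rose and 1.14% fell. Of the 2473 suffix models with at least 10 reads in each library, members included, 25.6% rose and 2.43% fell.

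Known models that dominate their gene give another comparison. Of 1121 known models with at least 10 reads and 50% of their gene in each library, 24.6% fell and 0.803% rose. The median difference in share was -3.46 percentage points in the members, -7.84 in these known models and 1.73 in the other suffix models. A model that holds most of a gene loses share when any other model gains, and the difference between these groups was not tested.

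**Figure D4:**
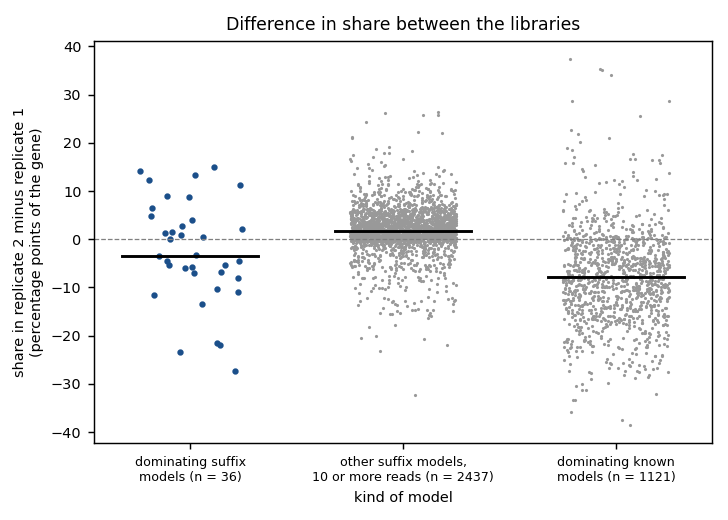
Difference in share of the gene between the libraries (y axis, replicate 2 minus replicate 1, percentage points) for 36 dominating suffix models, 2437 other suffix models with at least 10 reads in each library and 1121 dominating known models; each point is a model and each line a median. The median is -3.46 for the members, 1.73 for the other suffix models and -7.84 for the dominating known models.

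Of the 6 genes with the most reads, 5 were among the falls. HLA-DPA1 fell by 21.9 percentage points (adjusted p of 2.27e-46, Fisher's exact test) and RPL7A fell by 13.5 (adjusted p of 2.60e-54). RPS2 fell by 10.9 (adjusted p of 7.21e-96), RPS27A fell by 7.07 (adjusted p of 6.85e-12) and RPL34 fell by 5.40 (adjusted p of 1.50e-07). In these genes suffix models with fewer exons held a larger share in replicate 2. Their share went from 7.90% to 19.3% in RPS2, from 13.1% to 25.8% in RPL7A, from 14.0% to 31.4% in HLA-DPA1, from 4.24% to 13.6% in RPS27A and from 1.6% to 7.03% in RPL34. RPL26 was the exception, with a difference of 0.855 percentage points (adjusted p of 0.638), and its fewer-exon suffix models held 0.0232% and 0.122%.

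The other 4 falls were in genes with fewer reads. TIPRL, which binds phosphatases of the PP2A family, went from 77.4% of 84 reads to 50% of 66 (adjusted p of 0.00592, Fisher's exact test). AC099329.1 went from 97.7% of 44 reads to 74.4% of 39 (adjusted p of 0.0182) and AL031281.2 from 85.5% of 62 to 64.1% of 64 (adjusted p of 0.0442). MIR155HG fell by 7.96 percentage points (adjusted p of 0.0223) with Genomic reads left out. Over all reads of the gene its model held 67.9% in replicate 1 and 74.3% in replicate 2, the opposite direction. Over all 38 genes the share of suffix models with fewer exons was higher in replicate 2 in 23, lower in 2 and equal in 13. In those 13 genes no such model had a read in either library, so they show no agreement between the libraries. Several of their dominating models have 2 exons, the lowest number among suffix models with at least 10 reads in each library. The direction of this share was not counted over all annotated genes. Among all suffix models tested, 74.8% had a higher share in replicate 2, so the count is not read as particular to these genes.

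Gene levels were tested as well, on a measure that cannot be set against the differences in share. Each of 10634 genes was compared with the totals of the libraries by an exact binomial test, two-sided; of these, 2.72% were higher and 2.33% lower in replicate 2. Of the 38 genes, 3 rose and 0 fell (7 and 2 at an unadjusted p under 0.05). RPS2 rose from 7843 to 9355 CPM (reads scaled to a common library total; log2 ratio of 0.25, adjusted p of 1.75e-40), RPL34 from 2257 to 2486 (0.14, adjusted p of 0.00288) and RPS27A from 2777 to 2972 (0.10, adjusted p of 0.0452). HLA-DPA1 had 1355 and 1242 CPM (log2 ratio of -0.13). It did not pass the threshold, with an adjusted p of 0.108 and an unadjusted p of 0.0078 in the exact binomial test.

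Members were also counted in 8 lists of genes for cell functions. LUC7L3, a splicing factor gene with 11 and 10 reads in its model, was the single member among 56 genes for RNA binding and splicing with at least 10 reads in each library. No gene was a member among 48 of B cell identity and signalling, 56 with very long mRNAs, 42 of the cytoskeleton, 45 of chromatin and transcription, 41 of membrane traffic, 44 of the ubiquitin system and 33 of translation factors. These counts are too small to set apart from the share of 0.460% over all annotated genes.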

How the data were processed

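The values are raw read counts, without normalization, which the authors deposited as 1 table of transcript models by libraries. Its name shows that TALON made it, and minimap2 and the build hg38 are named in the submitters' processing notes; versions, read filters and the annotation release are not given in the sources used here. Exon structures, coding regions and transcript sequences came from GENCODE release 29 (GRCh38), microRNA sequences from RefSeq (GRCh38.p14).

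An annotated transcript of the same gene could give a suffix model when it had more exons, when its inner retained exons were no longer than the model, and when the retained junctions were not an annotated transcript in full. A boundary was fixed when these transcripts, or those whose last exons summed exactly to the length, left 1 run of junctions. Where several transcripts shared it, 1 was used for the absent exons, absent bases and start codon. Transcripts with the exact length were preferred, then those with an annotated start codon, then those with the fewest absent bases. The same order was used for the other suffix models. In the members without an exact length, the transcript used was the one with the fewest absent bases. Tests used scipy 1.17.1 and a threshold of 0.05 after Benjamini-Hochberg adjustment over every model or gene whose reads summed to at least 10, and were tested on simulated data. Scaling alternatives used edgeR 4.0.16 and DESeq2 1.42.0; a quasi-likelihood test needs a second group. Log2 ratios added 0.5 reads to each count.

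Models were named by rule: the 10 with the most reads, the 5 longest, the 5 with the highest share, the 5 lacking the most bases and the 5 lacking the most exons, the 3 largest called differences each way, the 5 most read without known reads and the 5 most read in noncoding genes, the 3 most read of each list, the 3 either side of each threshold, and the 3 with the highest Genomic share. The others, and the ribosomal family, were added once values were known. The members and lists were chosen with earlier results of these data known.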

Additional observations from a re-analysis of the deposited data

How the results depend on the processing

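The number of members depended on both thresholds. It was 25 with at least 20 reads, 22 with a share of at least 60% and 8 with at least 75%; it was 53 with at least 5 reads, and 30 with Genomic models in the denominator. With 1 library alone it was 61 to 66. The 9 falls in use became 8 with Genomic models in the denominator. They became 5 without a minimum of reads for testing, which puts more models into the adjustment, and 5 under Benjamini-Yekutieli adjustment. A rise in use was called in 0 members under every alternative tried. For gene levels, 1 gene was lower with TMM factors, and 6 were higher with Genomic models left out. The median length of 75.2% of the reference transcript was 93.0% against the known model with most reads (29 genes with one), 139.5% against the shortest transcript that could give the model, and 57.5 to 71.7% with 1 library alone. No test was run with 1 library. No paired analysis was possible because both libraries belong to the same group. Depth limits 29 of the 38 models, which have fewer than 100 reads in a library; their shares have wide intervals.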

Other observations

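Other suffix models met the rule in 1 library only, 23 in replicate 1 and 28 in replicate 2. Of the 23, 13 still had at least 10 reads in replicate 2 with a share below 50%. The example with the most reads was a 4-exon model of LRRC75A-AS1, a snoRNA host gene, with 553 reads (51.6% of the gene) in replicate 1 and 561 (39.3%) in replicate 2. Of the 28, 10 had at least 10 reads in replicate 1, among them 2-exon models of RBM14 (29 reads, 46.0%, and 37 reads, 62.7%) and MKI67 (26 reads, 37.7%, and 25 reads, 55.6%), a marker of dividing cells. These were picked once their values were known, and no test was made.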
